A study of Mus musculus with 6 samples.

Results

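The miR-30 family of the mouse hippocampus was followed in small RNA libraries of 2 genotypes. Its members were chosen by name, as every deposited miRNA row called miR-30a, miR-30b, miR-30c, miR-30d or miR-30e, at all loci and with both arms. The rule gave 12 rows with 11 names among 2035 miRNA rows, since the 5p arm of miR-30c is listed at 2 loci. All mice were C57BL/6 males aged 3 months that carried Dicer1 flox/flox and were given tamoxifen 3 weeks before the tissue was collected. The Dicer1-ifKO mice also carried CaMKIIa-creERT2, a recombinase that tamoxifen switches on and whose promoter is active in excitatory neurons of the forebrain. Mice called WT lacked this transgene, so their Dicer1 alleles were floxed as well. There were 3 libraries per genotype, each from RNA of 3 mice pooled in equal amounts, so 9 mice of each genotype entered, and p-values measure the spread between pools.

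A miRNA hairpin is cut out of a longer transcript by Drosha and then trimmed by Dicer, the product of Dicer1, into a duplex of a 5p and a 3p strand. One strand is kept by an Argonaute protein and pairs with messenger RNAs mainly through its seed, bases 2 to 8. The miR-30 hairpins lie in pairs at 3 places in the genome and are made in many cell types, neurons and glia among them. The best known roles of the family, studied largely outside the brain, include repression of Snai1, a regulator of epithelial identity, and of Becn1, an autophagy gene. The miR-30a hairpin is also the scaffold of many designed short hairpin RNAs.

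RefSeq sequences (GRCm38.p6) matched 8 of the 12 rows. Both strands of miR-30b and miR-30d had no matched sequence, so their seeds were not read here. The matched mature 5p strands are shown because the 5p seed defines the family. The seed stands in capitals.
miR-30a-5p: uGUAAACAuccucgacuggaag
miR-30c-5p: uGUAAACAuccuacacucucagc
miR-30e-5p: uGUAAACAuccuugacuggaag
miR-384-5p: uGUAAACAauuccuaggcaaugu
The seed GUAAACA was found in 4 of the 1679 mature miRNAs with a sequence, which do not include miR-30b or miR-30d. The only one outside the family was miR-384-5p, on chromosome X. Counted from the 5′ end, miR-30a-5p and miR-30e-5p differ only by C13U. The first 22 bases of miR-30c-5p differ from miR-30a-5p at 5 positions, all outside the seed.

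The 4 matched 3p strands carry other seeds, of 2 kinds, and are shown because they pair these members differently from the 5p strands.
miR-30a-3p: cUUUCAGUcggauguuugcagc
miR-30e-3p: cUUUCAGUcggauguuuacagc
miR-30c-1-3p: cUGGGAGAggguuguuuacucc
miR-30c-2-3p: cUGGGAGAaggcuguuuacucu
miR-30a-3p and miR-30e-3p share the seed UUUCAGU and differ only by G18A. The 3p strands of both miR-30c hairpins share UGGGAGA and differ at 3 positions. Every 5p strand shown begins with U and every 3p strand with C.

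The hairpins of miR-30a and miR-30e show how both strands sit in the precursor, with the 5p and then the 3p strand in capitals.
Mir30a: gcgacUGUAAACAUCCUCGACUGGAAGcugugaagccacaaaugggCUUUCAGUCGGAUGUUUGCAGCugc
Mir30e: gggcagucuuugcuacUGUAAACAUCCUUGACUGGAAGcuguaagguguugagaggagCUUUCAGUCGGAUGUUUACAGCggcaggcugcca
Mir30a lies on chromosome 1, 23272269 to 23272339, on the plus strand (GRCm38), in no annotated host gene of GENCODE M21. Mir30c-2 starts 19432 bases further along, at 23291701 to 23291784, inside an exon of the long noncoding RNA Gm27028. Mir30e (chromosome 4, 120772606 to 120772697) and Mir30c-1 (120769534 to 120769622) lie on the minus strand in introns of Nfyc, which encodes a subunit of the transcription factor NF-Y. Mir30b (chromosome 15, 68337415 to 68337510, minus strand) partly overlaps an exon of Gm26621. Mir30d (68341208 to 68341289, minus strand) lies in an exon of the noncoding RNA Gm20732, and the 2 hairpins of chromosome 15 start 3793 bases apart.

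Several rows shared their reads. The rows of miR-30c-5p on chromosomes 1 and 4 differed by -2.65% to 2.60%, so its reads looked evenly divided and the loci cannot be told apart. The row of miR-30f, on the strand opposite miR-30e-3p, held 0 to 7 counts more than that row in a library, so the counts did not separate the strands there. The Nfyc span held 21158 to 28735 counts, of which 3 to 12 lay outside the miR-30c-1 and miR-30e rows, and the span named Mir30d differed from the sum of its 2 strands by at most 3 counts. These spans are not used as measures of their host transcripts. Whether mismatches were allowed in alignment is not given in the sources used here, so reads may be shared between miR-30a and miR-30e, a possibility that was not tested.

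The libraries held 55101387 to 77428956 summed feature counts. The miRNA rows held 2318205 to 3179363 counts in a library, and the miR-30 rows held 135314 to 167678 of them. Levels are given as CPM, the counts of a row relative to a common total over all features after scaling between libraries. That total takes repeated transcript spans once, unlike the summed feature counts above. Reads that lie in several rows, as in the Nfyc span, enter it several times. The mature strands shown are 22 or 23 bases long, so their levels are compared without a correction for length. All marker names of neurons in the list used (miR-124-3p, miR-9-5p, miR-128-3p, miR-138-5p and miR-137-3p) were present, with a summed level of 2964 to 3802 CPM in WT and 2477 to 3118 CPM in Dicer1-ifKO. The lists of oligodendrocytes, vessels and erythrocytes, the last at up to 116 CPM in Dicer1-ifKO, also overlapped between the genotypes. The microglia and leukocyte list, which gives the strands of miR-142 under alternative names, had 4 of 6 names present. It was the only list of the 5 whose groups did not overlap, at 147 to 181 CPM in WT and 187 to 205 CPM in Dicer1-ifKO. By edgeR 0 of its rows were called at an adjusted p of 0.05. Of single tested miRNA rows, 2.01% were apart and higher in Dicer1-ifKO.

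In WT hippocampus the 5p strands of miR-30d and miR-30a led the family. miR-30d-5p stood at 1121, 1257 and 1397 CPM in WT replicates 1, 2 and 3, a mean of 1258 ± 138 (SD, n = 3). miR-30a-5p stood at 903, 827 and 1248 CPM, a mean of 993 ± 224 (SD, n = 3). Their WT ranges overlapped, and miR-30d-5p was the higher in 5 of the 6 libraries of both genotypes. Together they took 72.8% to 75.4% of the summed 5p counts in each library.

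The other 5p strands followed in a clearer order. miR-30c-5p, with both loci summed, stood at 462, 428 and 432 CPM in WT, and miR-30e-5p at 222, 191 and 354 CPM. These WT ranges were apart, but in Dicer1-ifKO replicate 1 miR-30e-5p was the higher. miR-30b-5p was the lowest 5p strand, at 73.6, 64.8 and 78.7 CPM, below miR-30e-5p in all 6 libraries. miR-384-5p, which shares the seed, added 28.7 ± 5.34 CPM in WT (SD, n = 3).

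Every hairpin of the family favoured its 5p strand. The 5p share of the counts of both strands was 99.80% ± 0.040 for miR-30d, 99.67% ± 0.18 for miR-30b, 98.63% ± 0.31 for miR-30c-1, 98.36% ± 0.34 for miR-30c-2, 96.67% ± 0.26 for miR-30a and 86.9% ± 2.18 for miR-30e in WT (SD, n = 3 each). Over the 180 hairpins with a mean of at least 10 counts in each strand, the 5p strand was the larger in 56.7%, and the median 5p share was 58.6%. The values of the miR-30c hairpins rest on evenly divided 5p reads, and that of miR-30b on 6 to 19 counts of its 3p strand in a library.

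miR-30a and miR-30e, whose strands differ by 1 base on each side, had arm ratios that were apart in all 6 libraries, with the gap on the 5p side. In WT replicates 1, 2 and 3 there were 30.1, 26.5 and 30.8 counts of miR-30a-5p for each of miR-30a-3p. For miR-30e there were 6.94, 5.46 and 7.91. The 3p strands stood at nearly the same level, 33.9 ± 5.75 CPM for miR-30a-3p and 37.2 ± 6.68 CPM for miR-30e-3p (SD, n = 3 each), while the 5p strands stood at 993 and 255 CPM. Whether reads were shared between these near-identical strands was not tested, and the counts of miR-30e-3p did not separate the strands of the genome.

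**Figure D1:**
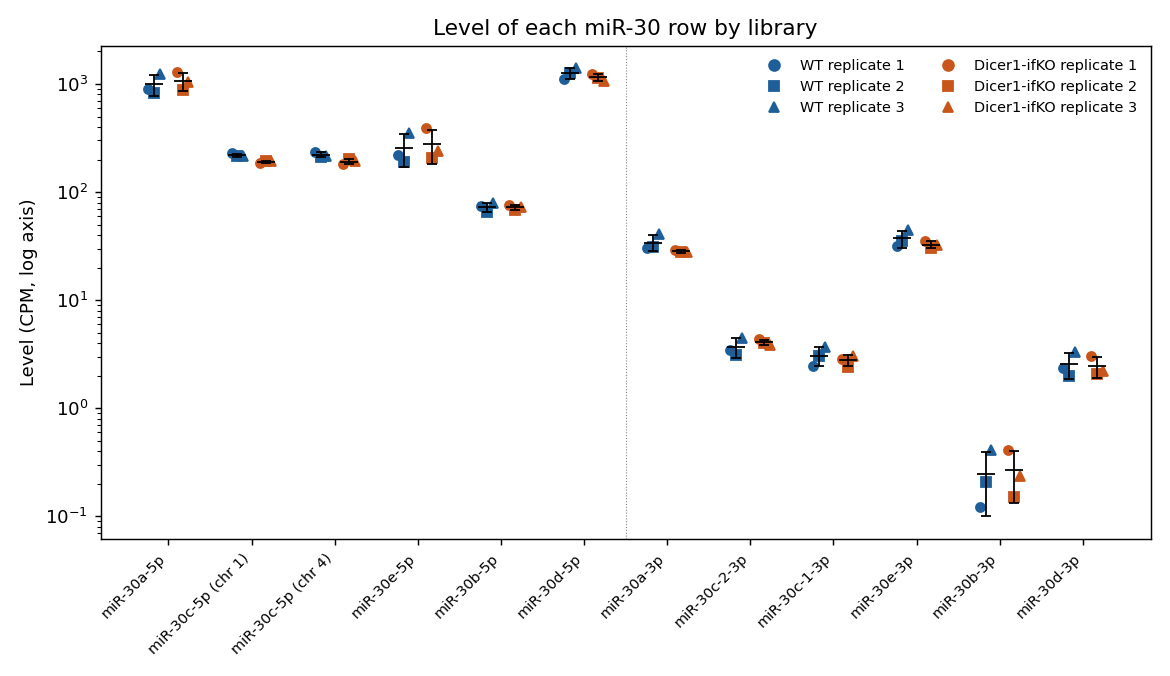
Level of each of the 12 miR-30 rows in CPM on a log axis, with 5p strands left and 3p strands right of the dotted line. Points are libraries, black marks the mean and SD of 3 libraries, and miR-30d-5p (1258 CPM in WT) and miR-30a-5p (993 CPM) stand highest while miR-30b-3p (0.247 CPM) stands lowest.

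The comparison of genotypes asks whether these miRNAs differed after Dicer1 was inactivated in the recombined neurons. No miR-30 row passed the test in either direction. All 12 rows passed the filter on low counts, and 0 were lower and 0 higher by edgeR's quasi-likelihood test (Benjamini-Hochberg over 6539 features, threshold of 0.05). DESeq2 also called 0. Over all features tested, 0.795% were called lower and 0.0153% higher, and of the 546 tested miRNA rows 6.59% were called lower and 0.0% higher. None of the 12 miR-30 rows had an edgeR p under 0.05 before adjustment (0 of 12), against 31.1% of the miRNA rows lower and 2.01% higher, and 6.47% of all features lower and 1.35% higher. The count of lower miRNA rows, 36, was 70 without WT replicate 1, 21 without WT replicate 2 and 14 without WT replicate 3. It was 19, 1 and 8 without Dicer1-ifKO replicates 1, 2 and 3, 3 with the replicate number as a block, and 8 when the miRNA rows set the scaling. A fit of the miRNA rows alone called 36 lower and 11 higher. The RNA is from whole tissue, in which cells that kept Dicer1 were included, and fewer cells of a type cannot be told apart from less RNA per cell.

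With the scaling set by all features, the most abundant members changed little against the spread of their libraries. miR-30d-5p stood at 1235, 1148 and 1071 CPM in Dicer1-ifKO replicates 1, 2 and 3, and these values overlapped those of WT. Its log2 change of -0.13 ± 0.13 (SE) had an interval of -0.41 to 0.16 (95%, edgeR adjusted p = 0.93). miR-30a-5p stood at 1287, 879 and 1043 CPM, with replicate 1 above and replicates 2 and 3 within the WT range. Its log2 change was 0.11 ± 0.18 (SE), with an interval of -0.29 to 0.51 (edgeR adjusted p = 0.99).

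miR-30e-5p, the near twin of miR-30a-5p, varied most among the 5p strands. It stood at 390.0, 208 and 238 CPM in Dicer1-ifKO, and only replicate 1 lay above the WT values. Its log2 change was 0.13, and the interval of -0.65 to 0.90 left its direction unresolved. miR-30b-5p stood at 76.2, 68.5 and 72.5 CPM, all within the WT range, with a log2 change of 0.00 and an interval of -0.31 to 0.31.

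miR-30c-5p was the only 5p member with no overlap between genotypes, and it was lower in Dicer1-ifKO. With both loci summed it stood at 366, 396 and 385 CPM in Dicer1-ifKO, a mean of 382 ± 15.4 against 441 ± 18.7 in WT (SD, n = 3 each). The 2 rows had log2 changes of -0.20 ± 0.13 and -0.21 ± 0.13 (SE), and neither passed (edgeR adjusted p = 0.82 each). When the miRNA rows alone set the scaling, both changes were 0.03.

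Among the 3p strands, only miR-30a-3p had groups that did not overlap. It stood at 30.1, 31.2 and 40.5 CPM in WT and at 29.0, 27.6 and 27.9 CPM in Dicer1-ifKO. The log2 change, -0.27 ± 0.16 (SE), was the lowest of the 12 rows and missed the threshold (edgeR adjusted p = 0.81). The change of miR-30a-3p was -0.08 without WT replicate 3 and -0.02 when the miRNA rows alone set the scaling. miR-30e-3p stood at 31.9, 34.9 and 44.7 CPM in WT and 35.0, 30.2 and 32.5 CPM in Dicer1-ifKO, which overlapped. miR-30c-2-3p, miR-30c-1-3p and miR-30d-3p, at 2.00 to 4.50 CPM in any library, had log2 changes of 0.14, -0.14 and -0.07, and miR-30b-3p had 0.07 with an interval of -0.99 to 1.12.

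In all, the CPM of the groups was apart for 3 of the 12 rows, lower in Dicer1-ifKO in each case, and 2 of these are the rows of miR-30c-5p that share reads. Of the 546 tested miRNA rows 33.9% were apart and lower, and 2.01% apart and higher. The median log2 change of the 12 rows was -0.10, with 7 below 0, against a median of -0.24 over the tested miRNA rows and -0.05 over all tested features. Of the other families that are likewise listed at several loci, let-7 with miR-98 had a median of -0.18 over 25 rows, miR-26 of -0.42 over 5 rows and miR-29 of -0.09 over 7 rows, each with 0 rows called in either direction by edgeR. At an unadjusted p of 0.05 edgeR gave 5 of 25, 3 of 5 and 1 of 7 lower rows for these families in the same order, and 0 higher, beside the 31.1% of all tested miRNA rows.

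**Figure D2:**
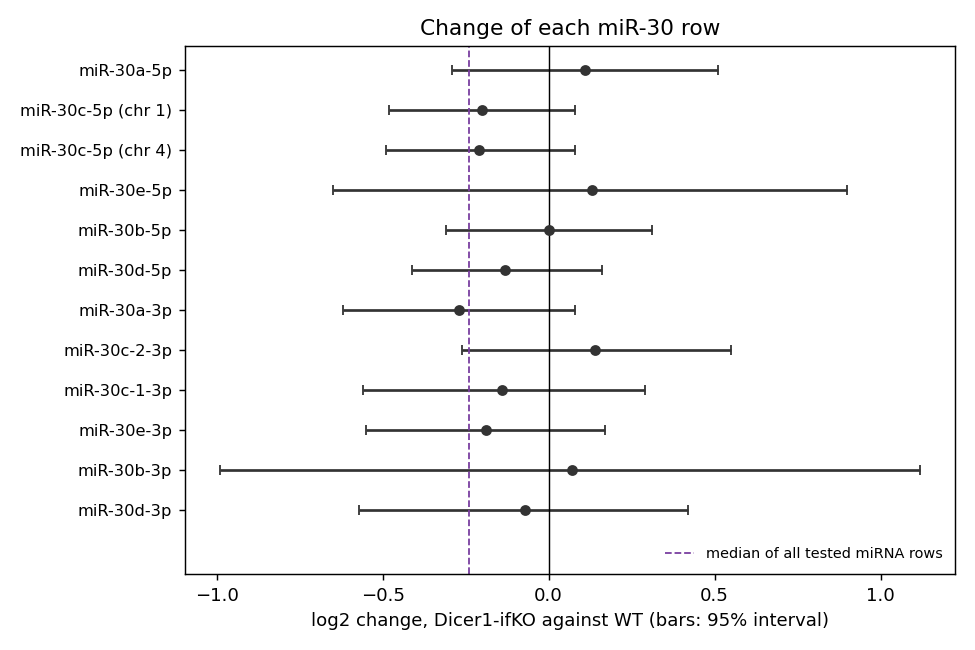
log2 change of each miR-30 row in Dicer1-ifKO against WT, with bars for the 95% interval and a dashed line at the median of all tested miRNA rows (-0.24). Every interval includes 0, and the point estimates run from -0.27 to 0.14.

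The small shift of the family took either sign, by what it was measured against and by which libraries were used. With 1 library left out, the median log2 change of its rows ran from -0.18 to 0.08. Summed over the 5p rows, the WT libraries averaged 3019 ± 424 CPM and the Dicer1-ifKO libraries 2955 ± 350.0 CPM (SD, n = 3 per genotype), and the groups overlapped. As a share of all miRNA counts the family took 5.13%, 4.71% and 5.27% in WT and 6.14%, 5.38% and 5.67% in Dicer1-ifKO. These groups did not overlap, and a two-sided exact permutation test gave p = 0.1, the smallest that 3 against 3 libraries can give. The difference of 0.695 percentage points was 0.325 when WT replicate 2 and Dicer1-ifKO replicate 1 were both left out. The microglia and leukocyte list, given above, was also higher in all 3 Dicer1-ifKO libraries, and its part in this share was not tested. When the miRNA rows alone set the scaling, the median of all tested features moved from -0.05 to 0.19 and that of the miRNA rows from -0.24 to 0.00, and the median of the family was 0.15.

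Within the family no member took a clearly different share of the 5p counts. The share of miR-30a-5p averaged 32.6% ± 2.84 among WT and 36.0% ± 3.06 among Dicer1-ifKO libraries, and that of miR-30d-5p 41.8% ± 3.12 and 39.2% ± 2.98 (SD, n = 3 per genotype). The shares of miR-30c-5p were 14.8% and 13.1%, those of miR-30e-5p 8.31% and 9.28%, and those of miR-30b-5p 2.41% and 2.46%. All 5 shares overlapped between the genotypes. Over the 5 members the two-sided exact permutation p ran from 0.2 to 0.9, and from 0.67 to 0.90 after adjustment. With 3 against 3 libraries this test cannot give a p below 0.1, so no member could have passed a threshold of 0.05.

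The arm ratio does not depend on the scaling between libraries, and for 1 of the 6 hairpins the genotypes did not overlap. For each count of miR-30a-3p there were 44.4, 31.8 and 37.4 counts of miR-30a-5p in Dicer1-ifKO replicates 1, 2 and 3, all above the WT values. The log2 arm ratio averaged 4.86 ± 0.12 among WT and 5.23 ± 0.24 among Dicer1-ifKO libraries (SD, n = 3 per genotype). The difference was 0.37 ± 0.14 (SE), with an interval of 0.06 to 0.68. It did not pass limma's moderated test over 180 hairpins (limma adjusted p = 0.16). The difference was 0.18 when WT replicate 2 and Dicer1-ifKO replicate 1 were both left out, and 0.25 when Dicer1-ifKO replicate 1 alone was.

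The other hairpins overlapped. miR-30e had 11.1, 6.89 and 7.34 counts of its 5p strand for each of its 3p strand in Dicer1-ifKO, of which only replicate 1 lay above the WT values, and its log2 difference was 0.30 ± 0.20 (SE, limma adjusted p = 0.36). miR-30c-2 differed by -0.36 ± 0.20 (SE, limma adjusted p = 0.29), and miR-30b, miR-30c-1 and miR-30d by -0.14, -0.08 and -0.06. By limma 0 of 6 hairpins were called and 1 had an unadjusted p under 0.05. Over the 180 hairpins 3.89% were called, 24.4% had an unadjusted p under 0.05, 17.2% were apart with the 5p strand gaining and 12.8% were apart with the 5p strand losing.

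**Figure D3:**
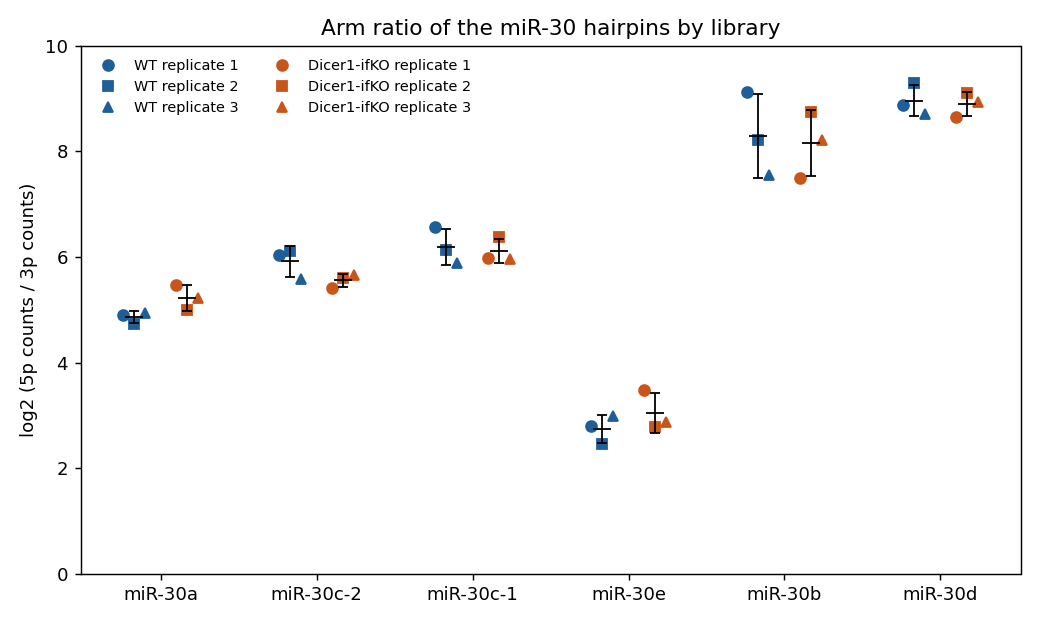
log2 ratio of 5p to 3p counts in each library for the 6 miR-30 hairpins, with black marks for the mean and SD of 3 libraries. All 6 hairpins lie above 0, miR-30e lowest (WT mean 2.74) and miR-30d highest (8.96), and only miR-30a has its Dicer1-ifKO libraries all above its WT libraries.

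**Figure D4:**
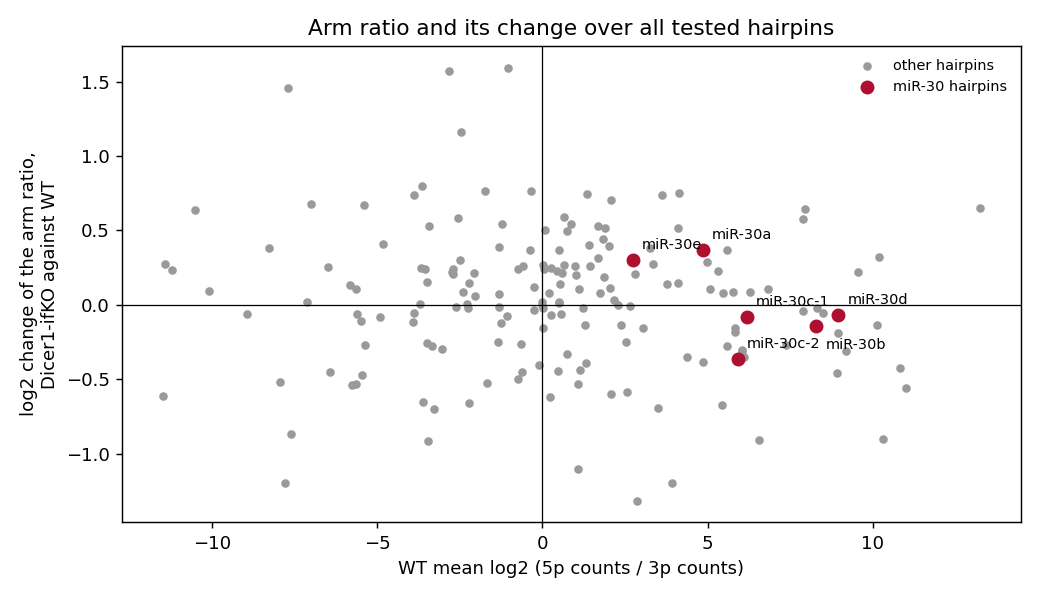
WT mean log2 arm ratio against its log2 change in Dicer1-ifKO for 180 hairpins, with the 6 miR-30 hairpins in red. The miR-30 hairpins lie on the 5p side, and their changes of -0.36 to 0.37 lie within the cloud of the other hairpins.

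Across the 6 libraries the levels of most pairs of members were positively correlated, and those with miR-30c-5p were often not. These correlations describe 6 points that share libraries and scaling. The log2 levels of miR-30a-5p and miR-30e-5p, from chromosomes 1 and 4, had a Pearson r of 0.98, and those of miR-30a-3p and miR-30e-3p had 0.95. Reads may be shared within either pair, which was not tested. miR-30a-5p also had an r of 0.88 with miR-30b-5p and of 0.45 with miR-30d-5p. With miR-30c-5p it had -0.38 (the chromosome 1 row) and -0.49 (the chromosome 4 row). The 2 hairpins of chromosome 15 had an r of 0.30 between their 5p strands. miR-30a-5p had a higher r with the 3p strand of its chromosome 1 neighbour, miR-30c-2-3p, than with its own 3p strand, 0.85 against 0.42.

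miR-30a-5p and miR-30e-5p were highest in WT replicate 3 and Dicer1-ifKO replicate 1 and lowest in WT replicate 2. In miR-30c-5p the lowest value was that of Dicer1-ifKO replicate 1. Without Dicer1-ifKO replicate 1 the log2 changes of miR-30a-5p and miR-30e-5p were -0.05 and -0.19, and without WT replicate 2 they were 0.00 and -0.04. Without WT replicate 3 they were 0.35 and 0.48. The GC content of the mature strand is 45.5% for miR-30a-5p, 40.9% for miR-30e-5p and 43.5% for miR-30c-5p. With the GC trend of the miRNA rows removed, the log2 changes were 0.09 for miR-30a-5p, 0.04 for miR-30e-5p, and -0.24 and -0.25 for the 2 rows of miR-30c-5p. The rows of miR-30b and miR-30d had no matched sequence and were not part of this correction.

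**Figure D5:**
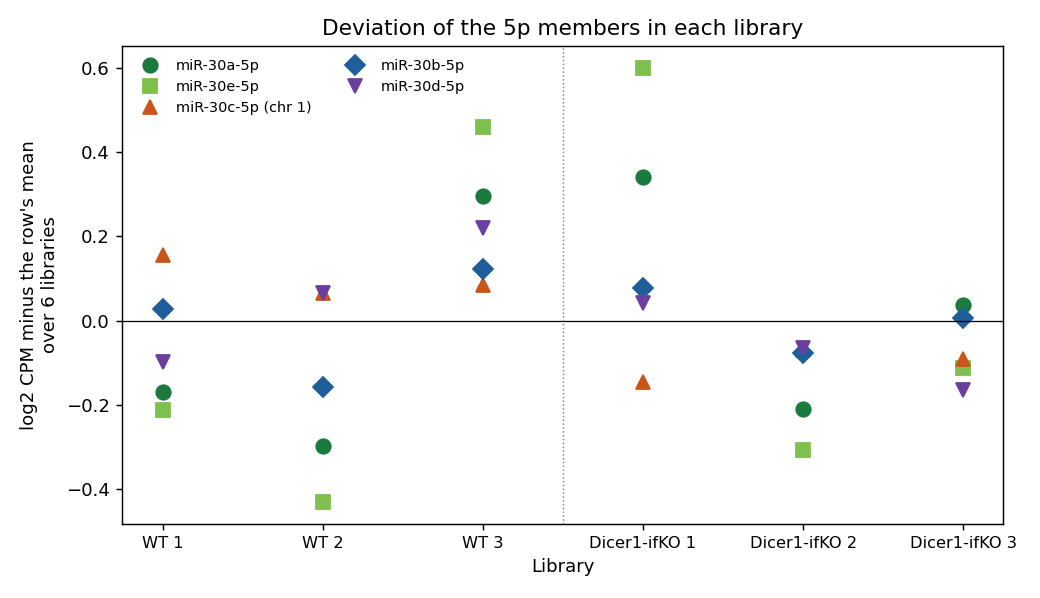
log2 CPM of the 5p strands minus each row's mean over 6 libraries, with the genotypes on either side of the dotted line. miR-30a-5p and miR-30e-5p lie together and are highest in WT replicate 3 and Dicer1-ifKO replicate 1, while miR-30c-5p is lowest in Dicer1-ifKO replicate 1.

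Outside the family, the 3 rows most like the summed 5p level over the 6 libraries, among 381 miRNA rows with a mean of at least 50 counts, were miR-101b-3p (Pearson r of 0.983), let-7f-5p (0.969, its chromosome 13 row) and let-7g-5p (0.967). Their log2 changes were -0.14, 0.06 and -0.05, and none passed (edgeR adjusted p = 0.99 each). miR-384-5p, with the seed of the family, stood at 25.6, 25.6 and 34.8 CPM in WT and at 35.4, 22.4 and 22.8 CPM in Dicer1-ifKO. It was high in the same 2 libraries as miR-30a-5p, and its log2 change was -0.09 ± 0.21 (SE, edgeR adjusted p = 0.99).

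The enzymes of the miRNA pathway could hardly be read from small RNA. Of the 10 genes listed, only Dgcr8, Dicer1 and Ago4 (named Eif2c4 in the files) had a span that passed the filter, 4 spans in all, and edgeR called 0 of them in either direction, also 0 at an unadjusted p of 0.05, a threshold that 6.47% of all features passed as lower and 1.35% as higher. The span of Dicer1, the targeted gene, held 45, 33 and 47 counts in the WT libraries. The Dicer1-ifKO libraries held 37, 32 and 35 there. The span covers the whole gene and does not resolve the floxed part, so it checks no genotype label.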

How the data were processed

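Total hippocampal RNA was made into TruSeq small RNA libraries for HiSeq sequencing, per the labels' protocols. The labels give 3 pools of 3 mice per genotype, which makes 9, while the series' design text gives 12 per genotype. The authors deposited raw read counts per feature and a second column, a normalized signal that equals the raw counts times 1 constant per library and was only checked for that. Build GRCm38 (mm10) and the tools BWA, DESeq2, SAMtools 0.1.18 and CASAVA 1.8.2 are listed, with no roles, per the submitters' processing notes. Neither the counting tool nor its annotation is given in the sources used here. Transcript spans of 1 gene with the same counts in all 6 libraries were counted once, which removed 13134 of 109108 rows.

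Counts were tested with edgeR 4.0.16 (R 4.3.3): filterByExpr by genotype (minimum count 10), TMM, and the robust quasi-likelihood fit, two-sided, with Benjamini-Hochberg adjustment over 6539 features. Arm ratios, log2((5p + 0.5)/(3p + 0.5)), were tested with limma 3.58.1 (eBayes with a trend on the weaker strand) over 180 of 851 hairpins paired within 120 bases. Some hairpins on opposite strands share reads. Shares were compared by exact permutation. Functions were tested on simulated data. All miR-30 rows were named, with miRNAs of the same seed, the 3 rows most alike, host spans and Dicer1. The members and lists were chosen with earlier results of these data known. Alternatives were other scalings, DESeq2 1.42.0, other filters and pseudocounts, summed loci, a replicate block, and fits without single libraries. Chosen after seeing the data were the joint removal of WT replicate 2 and Dicer1-ifKO replicate 1, the pair of libraries whose deviations over miRNA rows had the lowest correlation between genotypes (-0.374), and the removal of a GC trend (loess, span 0.75). Libraries of 1 genotype differed beyond counting noise (chi-square over degrees of freedom from 22.0 to 65.3 over miRNA rows).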

Additional observations from a re-analysis of the deposited data

How the results depend on the processing

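Under every alternative run, 0 miR-30 rows were called lower, 0 higher and 0 hairpins called for their arm ratio. The lowest edgeR adjusted p of a miR-30 row was 0.075, for miR-30a-5p (log2 change 0.35), when the miRNA rows alone were fitted. That fit gave miR-30c-2-3p a change of 0.40 (edgeR adjusted p = 0.084). The median log2 change of the family, -0.10, was 0.15 under TMM computed on miRNA rows and 0.14 in a fit of the miRNA rows alone, and -0.18 to 0.08 with 1 library left out. Under either of the miRNA-based settings the changes turned to 0.03 for either miR-30c-5p row, 0.12 for miR-30c-1-3p, 0.06 for miR-30e-3p, 0.17 for miR-30d-3p and 0.11 for miR-30d-5p. With WT replicate 2 and Dicer1-ifKO replicate 1 both left out, the changes turned to -0.17 for miR-30a-5p, -0.03 for miR-30c-2-3p, -0.37 for miR-30e-5p and -0.47 for miR-30b-3p, the arm ratio changes to 0.14 for miR-30b, 0.22 for miR-30d and -0.06 for miR-30e, and the share changes to 0.264 percentage points for miR-30d-5p and -0.921 for miR-30e-5p. With 1 library left out, the log2 change ran from -0.05 to 0.35 for miR-30a-5p, -0.19 to 0.48 for miR-30e-5p, -0.36 to 0.67 for miR-30b-3p, -0.27 to 0.06 for miR-30c-1-3p, -0.29 to 0.01 for miR-30e-3p and -0.27 to 0.20 for miR-30d-3p. The arm ratio change ran from -0.51 to 0.27 for miR-30b, -0.24 to 0.10 for miR-30c-1 and -0.19 to 0.10 for miR-30d, and the share change from -0.0298 to 0.171 percentage points for miR-30b-5p and -0.208 to 1.85 for miR-30e-5p. Thus 14 of 18 row and hairpin values changed sign somewhere, and the cause was not tested. miR-30b-5p, with a change of 0.00 in the main fit, is not in this count, although its change ran from -0.12 to 0.24 over all settings. With the GC trend removed the arm ratio change of miR-30a was 0.27 (limma adjusted p = 0.25); miR-30b and miR-30d were left out of that setting. Whether the replicate numbers pair the libraries was not settled. Same-numbered deviations over miRNA rows had correlations of -0.046, 0.255 and -0.26. WT replicate 2 and Dicer1-ifKO replicate 2 correlated best with each other, and the other libraries did not correlate best with their own number. The deviations are taken from the mean of each genotype, so these correlations depend on each other and cannot decide it. The replicate block changed no direction or call in 28 results. With it the family median was -0.09 and the arm ratio of miR-30a had a limma adjusted p of 0.078, its lowest over the settings. That limma adjusted p was 0.36 without WT replicate 2. It was highest, at 0.54, with WT replicate 2 and Dicer1-ifKO replicate 1 both left out. The 3p strand of miR-30b held 6 to 19 counts in a library, the fewest of the family.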
